A study of Mus musculus with 10 samples.

Results

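Interferon-stimulated genes are the genes that cells switch on when they sense interferon. The list followed here holds 34 mouse genes of the type I interferon response, and its members were taken by symbol: a probe set belonged to the list when its only gene symbol in the array annotation was a listed one, and the probe set of highest mean stood for each symbol. Of the 34 listed genes 32 had such a probe set, out of 19938 genes on the array. The other two were Isg15, whose probe set also carries a second gene symbol, and Ifi44, which no single-symbol probe set names. Of the 32, 28 passed a filter that leaves out genes up to the 25th percentile of the mean (4.52 on the log2 scale), together with 14953 genes in all. Ifit1, Ifit3, Mx1 and Mx2 fell below it. The filter uses the mean of all 10 arrays and not the genotype.

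RNA came from 5 Hspa9+/- mice (here heterozygous) and 5 Hspa9+/+ littermates (here wild type), with 1 Mouse Gene 1.0 ST array per mouse. Bone marrow of each mouse was grown separately for 7 days in a methylcellulose medium for pre-B colonies (M3630), B220+ cells were sorted from the colonies, and their RNA was amplified with a NuGen kit. B220 is a form of CD45 on B lineage cells that plasmacytoid dendritic cells also carry. Hspa9 encodes mortalin, a chaperone of the mitochondrial matrix. The labels state neither the age, sex or strain of the mice nor how the allele was made. The labels name no treatment with interferon or virus.

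Type I interferons bind a receptor pair whose kinases, JAK1 and TYK2, phosphorylate transcription factors such as STAT2. With IRF9, STAT2 enters a complex that binds a DNA element, the interferon-stimulated response element, in front of its target genes. Interferon gamma acts instead through a gamma-activated site, and many genes of antigen processing answer to both routes. B cell precursors carry the receptor and are sensitive to interferon, which limits their growth in response to interleukin 7.

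The elements can be read in the promoters. RefSeq windows (GRCm38.p6, 250 bases before to 50 bases after each start) were at hand for 25 of the 34 members. The response element was searched on both strands as GAAA, any 2 bases and GAAA again, and the gamma-activated site as TTCNNNGAA, which reads the same on both strands, and the letters of one can overlap those of the other. The first stood in 10 of the 25 members (40.0%), against 3.99% of all 27025 genes with a window. The second stood in 7 of the 25 (28.0%), against 9.55% of all genes. A match is only a run of letters. The stretches below belong to genes whose values are described further on, and the capitals mark the searched motif.
Ddx58, chr4:40239789-40239848, minus strand: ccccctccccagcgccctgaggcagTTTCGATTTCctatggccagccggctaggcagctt
Eif2ak2, chr17:78882523-78882582, minus strand: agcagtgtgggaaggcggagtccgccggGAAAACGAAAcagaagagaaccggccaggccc
Oas1a, chr5:120907508-120907567, minus strand: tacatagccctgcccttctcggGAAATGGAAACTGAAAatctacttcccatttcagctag
Ifit1, chr19:34640769-34640828, plus strand: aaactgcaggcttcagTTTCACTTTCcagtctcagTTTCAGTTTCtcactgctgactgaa
Psmb8, chr17:34198072-34198131, plus strand: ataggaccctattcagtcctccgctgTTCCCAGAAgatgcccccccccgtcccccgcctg
The first 4 hold the response element and Psmb8 holds the gamma-activated site, which begins 97 bases before its start. Oas1a has 2 overlapping copies and Ifit1 has 2 separate ones.

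The antigen processing members Psmb9 and Tap1 are neighbours on chromosome 17 that run in opposite directions from 1 shared stretch. Their windows have 275 bases in common. The window of Tap1 is shown because both genes had differences of like size, and its capitals mark the 225 bases between the start of Psmb9, to the left, and the start of Tap1, to the right.
Psmb9 and Tap1, chr17:34187306-34187605, plus strand: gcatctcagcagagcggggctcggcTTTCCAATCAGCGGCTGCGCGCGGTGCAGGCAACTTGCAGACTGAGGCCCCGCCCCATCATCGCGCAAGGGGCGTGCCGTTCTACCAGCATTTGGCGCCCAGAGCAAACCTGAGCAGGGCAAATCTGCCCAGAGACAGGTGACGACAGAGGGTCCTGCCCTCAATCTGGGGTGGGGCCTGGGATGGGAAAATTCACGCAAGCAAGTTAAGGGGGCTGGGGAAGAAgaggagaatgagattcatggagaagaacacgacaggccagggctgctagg
Neither searched motif is in this window.

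No interferon-stimulated gene passed the genotype test over all genes. Differences are heterozygous minus wild type in RMA log2 units, and limma with Benjamini-Hochberg adjustment called 0 of the 28 members and 0% of the 14953 genes at 0.05. At an unadjusted p under 0.05 there were 3 members (10.7%), against 11.0% of all genes. These were the immunoproteasome genes Psmb9 and Psmb8, which were higher in heterozygous cells, and the RNA sensor gene Ddx58, which was lower. Of all genes 6.79% were higher and 4.25% lower at that level, so the members' share was near the background. The genotypes overlapped for all 28, where 2.28% of all genes did not overlap (1.47% higher and 0.809% lower). The difference was above 0 for 18 members and below 0 for 10 (64.3% above 0, against 61.3% of all genes), and the median member differed by 0.068, against 0.058 for the median gene. The 95% interval lay within a 2-fold change either way for 27 members (96.4%), against 90.9% of all genes. Eif2ak2 was the exception.

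**Figure D1:**
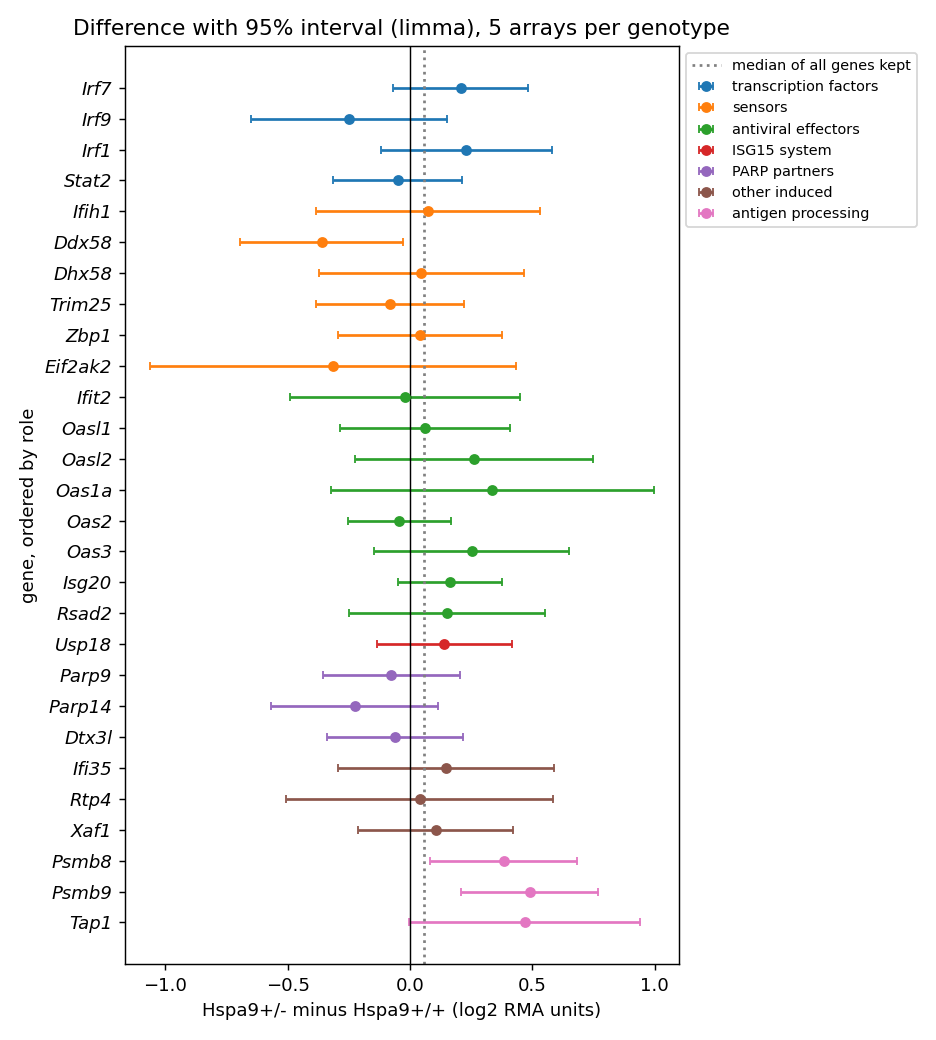
Difference between Hspa9+/- and Hspa9+/+ arrays (log2 RMA units, 5 arrays per genotype) for the 28 interferon-stimulated genes that passed the filter, ordered and coloured by role. Points are limma estimates, bars are 95% intervals, and the dotted line is the median of all genes (0.058). The intervals of Psmb8, Psmb9 and Ddx58 do not reach 0.

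Facts of the series that touch these values are few. Hspa9 averaged 9.18 ± 0.244 in heterozygous and 9.92 ± 0.378 in wild type arrays (SD, n = 5 each), a difference of -0.73 (SE 0.185, limma adjusted p = 0.345). Array medians lay between 5.38 and 5.49. Heterozygous array 2 and wild type array 1 stood apart, with macrophage marker means of 9.54 and 9.10, where the other arrays lay between 5.42 and 7.42. In a bulk sample, fewer cells of a type and less RNA per cell cannot be told apart.

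The antigen processing members, Psmb8, Psmb9 and Tap1, had the 3 highest differences of the list. Psmb8 and Psmb9 encode catalytic subunits that replace their standard counterparts in the immunoproteasome, and Tap1 encodes one chain of the transporter that carries peptides into the endoplasmic reticulum for loading on MHC class I.

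Psmb9 was at 11.52, 11.48, 11.57, 11.61 and 11.73 in heterozygous arrays 1 to 5, against 11.21, 11.49, 11.03, 10.85 and 10.88 in wild type arrays 1 to 5. The 5 heterozygous values lay close together, and of the wild type values only array 2 reached them, at a level just above heterozygous array 2. The means were 11.58 ± 0.0961 and 11.09 ± 0.262 (SD), a difference of 0.49 (SE 0.128), or 1.40-fold with a 95% interval of 1.15 to 1.71. The limma adjusted p was 0.345 (unadjusted p = 0.00281).

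Psmb8 was at 10.09, 9.98, 10.04, 10.32 and 10.40 in heterozygous arrays, against 9.96, 10.09, 9.66, 9.47 and 9.75 in wild type arrays. Every wild type array other than array 2 lay below all heterozygous arrays, array 1 by a narrow margin. The difference was 0.38 (SE 0.137), 1.30-fold with an interval of 1.06 to 1.61 and a limma adjusted p of 0.384.

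Tap1 was at 8.65, 8.79, 8.88, 9.13 and 9.37 in heterozygous arrays, against 9.08, 8.88, 8.09, 8.22 and 8.21 in wild type arrays. Here too wild type arrays 3, 4 and 5 were below every heterozygous array, and wild type arrays 1 and 2 were in the heterozygous range. The difference was 0.47 (SE 0.215), 1.38-fold with an interval of 0.997 to 1.92 and a limma adjusted p of 0.455. It was 0.66 without heterozygous array 2 and wild type array 1 together, and 0.29 with plasmacytoid dendritic cell markers as a covariate.

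Over these 3 genes the array mean was 10.08, 10.08, 10.17, 10.35 and 10.50 in heterozygous arrays, against 10.08, 10.15, 9.59, 9.51 and 9.61 in wild type arrays. Wild type arrays 3, 4 and 5 were also the arrays lowest in macrophage and plasmacytoid dendritic cell markers. With macrophage markers as a covariate Psmb9 was at 0.44 and Psmb8 at 0.34, and with plasmacytoid dendritic cell markers they were at 0.37 and 0.34. Heterozygous array 5, the highest for all 3 genes, had a macrophage marker mean of 7.08 and the lowest B lineage marker mean, 9.99.

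Other genes of the same machinery stood in the fixed list of type II interferon and MHC class I genes, of which 12 of 21 listed genes were measured above the filter. At an unadjusted p under 0.05, 3 were higher and 1 was lower, and the median difference was -0.012. Over all genes 6.79% were higher and 4.25% lower at that level. Tap2, the second chain of the transporter and the next gene on the chromosome beyond Psmb8, was at 7.36, 7.30, 7.46, 7.66 and 7.81 in heterozygous arrays, against 7.52, 7.24, 7.08, 6.59 and 6.95 in wild type arrays, a difference of 0.44 (SE 0.170, limma adjusted p = 0.406). Psme1 and Psme2 encode the chains of the PA28 proteasome activator. Psme1 differed by 0.32 (SE 0.0984, limma adjusted p = 0.349), with 4 of 5 wild type arrays below all heterozygous arrays, and Psme2 differed by 0.25 (SE 0.108, limma adjusted p = 0.448). Ciita, the master regulator of MHC class II genes, was the lower gene, at -0.60 (SE 0.219, limma adjusted p = 0.384). Other genes of peptide processing and loading on this list went both ways. Psmb10, the third inducible proteasome subunit, was at 0.36 (SE 0.194), Tapbp, the loading chaperone tapasin, at 0.12 (SE 0.245), the light chain B2m at -0.09 (SE 0.0965) and the trimming peptidase Erap1 at -0.13 (SE 0.226). H2-K1 and H2-D1, the classical class I heavy chains, have no single-symbol probe set and were not analysed here.

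**Figure D2:**
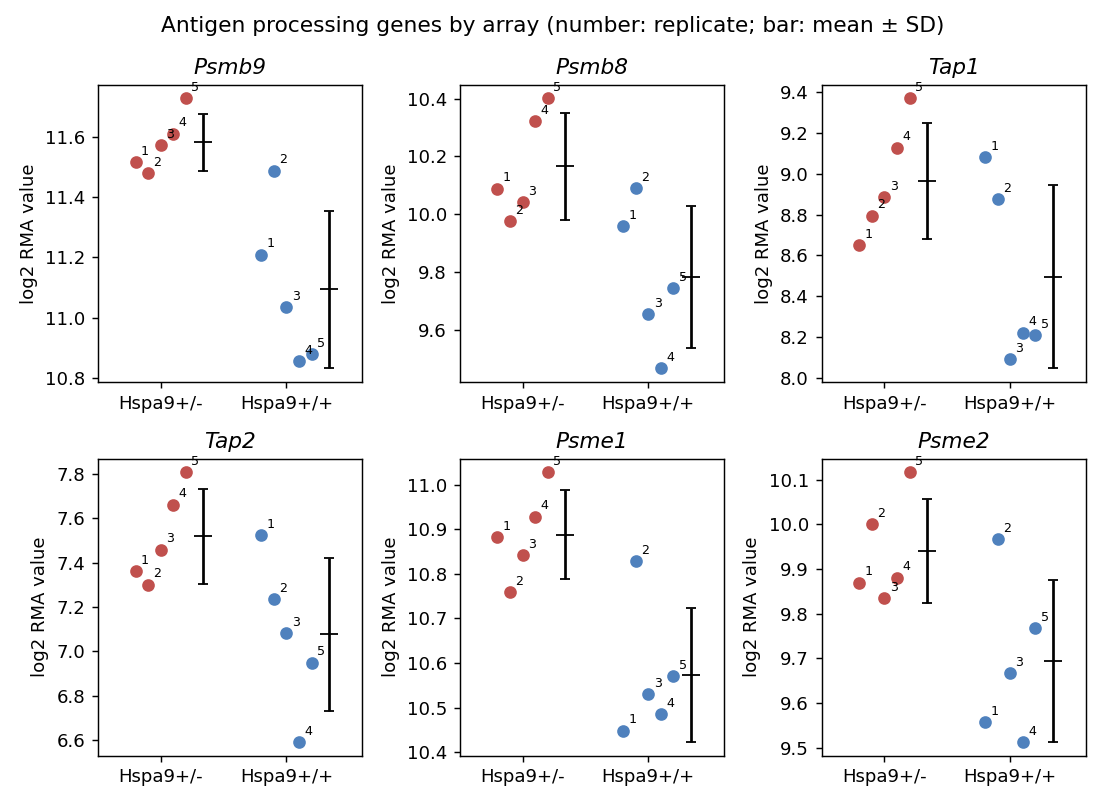
Log2 RMA values of Psmb9, Psmb8, Tap1, Tap2, Psme1 and Psme2 in Hspa9+/- (red) and Hspa9+/+ (blue) arrays. Points carry the replicate number, and bars are the mean ± SD of 5 arrays. Axes do not start at 0. In each panel wild type array 4 lies below all Hspa9+/- arrays, and wild type array 2 overlaps them in 5 of 6 panels.

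Among the nucleic acid sensors, 3 members had differences above 0 and 3 below. Ddx58 encodes RIG-I, which detects RNA with a 5′ triphosphate. It was at 6.50, 6.92, 6.94, 6.36 and 6.24 in heterozygous arrays, against 7.14, 6.85, 6.81, 6.90 and 7.06 in wild type arrays. Heterozygous arrays 1, 4 and 5 were below all wild type arrays, and heterozygous arrays 2 and 3 lay within their range. The difference was -0.36 (SE 0.150), 0.778-fold with an interval of 0.619 to 0.979 and a limma adjusted p of 0.432. It ran from -0.58 with plasmacytoid dendritic cell markers as a covariate to -0.26 with array weights, and was -0.27 without heterozygous array 5. The unadjusted limma p of Ddx58 was 0.0349 in the main fit, 0.0884 with array weights and 0.0717 with the replicate block. It was 0.0690, 0.0847 or 0.0858 without heterozygous array 1, 4 or 5. Without wild type array 1 or 5 it was 0.0758 or 0.0722. It ran from 0.0126 to 0.0490 without any other single array, and from 0.00477 to 0.0404 in the remaining alternatives.

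Eif2ak2 encodes PKR, a kinase that halts translation on sensing double-stranded RNA, and its difference had the highest SE of the 28 members. Its values were 6.75, 6.27, 6.03, 5.67 and 5.35 in heterozygous arrays, against 6.08, 5.51, 7.02, 7.06 and 5.96 in wild type arrays. Wild type arrays 3 and 4 were above every other array and wild type array 2 was near the bottom. The difference of -0.32 (SE 0.340, limma adjusted p = 0.693) had an interval of -1.06 to 0.43. It ran from -0.13 without wild type array 4 to -0.52 without wild type array 2, and was -0.14 without wild type array 3, -0.15 without heterozygous array 5 and -0.50 without heterozygous array 1.

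The remaining sensors differed by -0.083 to 0.074. Ifih1, which encodes MDA5, a sensor of long double-stranded RNA, ran between 4.68 and 5.70 in heterozygous arrays and between 4.78 and 5.50 in wild type arrays, each time highest on the array richest in macrophage markers. Dhx58, which encodes LGP2, a partner of the other two receptors, ran between 5.73 and 6.23 in heterozygous and between 5.36 and 6.43 in wild type arrays, again with heterozygous array 2 and wild type array 1 on top. Zbp1, a sensor of left-handed nucleic acids, reached 6.52 on both of these arrays. Trim25, a ubiquitin ligase that acts on RIG-I, ran between 8.62 and 9.07 in heterozygous and between 8.54 and 9.12 in wild type arrays.

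Of the 4 transcription factors, 2 had differences above 0 and 2 below, and none had an unadjusted p under 0.05. Irf7, which amplifies interferon production and is itself induced by interferon, was at 5.55, 5.60, 5.74, 5.55 and 5.69 in heterozygous arrays, against 5.76, 5.62, 5.20, 5.20 and 5.31 in wild type arrays. The heterozygous arrays were all above wild type arrays 3, 4 and 5, the same division as in the antigen processing genes. The difference was 0.21 (SE 0.125, limma adjusted p = 0.533). It was 0.12 with macrophage markers as a covariate and 0.0298 with plasmacytoid dendritic cell markers. Irf1, an activator of immunoproteasome and transporter genes, differed by 0.23 (SE 0.159, limma adjusted p = 0.563), and its second probe set by 0.20. The first was at 0.35 without wild type array 2, 0.15 without wild type array 4 and 0.0503 with plasmacytoid dendritic cell markers as a covariate. Irf9, the DNA-binding part of the STAT complex, was at -0.25 (SE 0.182), with wild type arrays 1 and 2 highest at 7.10 and 7.26. It was -0.15 without heterozygous array 1, -0.13 without wild type array 2, -0.067 with array weights and -0.51 with plasmacytoid dendritic cell markers as a covariate. Stat2, its partner, was at -0.05 with an interval of -0.31 to 0.21.

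Of the 12 listed antiviral effectors 4 were below the filter, and the other 8 had a median difference of 0.16, with 6 above 0 and 2 below. Ifit1 and Ifit3, which encode proteins that bind foreign RNA ends, had means of 4.42 and 3.83 in heterozygous and 4.21 and 3.89 in wild type arrays, below the filter. Each of their promoter windows holds 2 matches to the response element. Mx1 and Mx2, the dynamin-like antiviral GTPases, were at 2.92 and 3.59 in heterozygous and 3.07 and 3.54 in wild type arrays. Ifit2 ran between 4.94 and 5.32 in heterozygous arrays and between 4.61 and 5.82 in wild type arrays, a difference of -0.02 (SE 0.214).

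The Oas genes encode enzymes that make the second messenger for RNase L, and Oasl1 and Oasl2 are their relatives. Oas1a had the highest difference of the effectors. Its values were 6.30, 7.18, 6.78, 6.22 and 6.80 in heterozygous arrays, against 7.45, 6.33, 5.91, 5.98 and 5.94 in wild type arrays. The highest array of all was wild type array 1, and the 3 lowest were wild type arrays 3, 5 and 4, while wild type array 2 lay among the lower heterozygous arrays. The difference was 0.34 (SE 0.299, limma adjusted p = 0.634) with an interval of -0.32 to 1.00. It was 0.62 without wild type array 1, 0.21 without heterozygous array 2, 0.0262 with macrophage markers as a covariate and -0.16 with plasmacytoid dendritic cell markers. The mouse has several close copies of Oas1, and whether the probes tell them apart was not tested.

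Oasl2 differed by 0.26 (SE 0.221), with 5.72 on heterozygous array 2 as its highest value and 5.33 on wild type array 1 as the highest of the wild type arrays. It was 0.11 without heterozygous array 2, 0.41 without heterozygous array 4, 0.077 with macrophage markers as a covariate and 0.0124 with plasmacytoid dendritic cell markers. Oas3 differed by 0.25 (SE 0.181), and by 0.40 without wild type array 2, 0.15 without wild type array 3 and 0.0537 with plasmacytoid dendritic cell markers as a covariate. Oasl1 differed by 0.06 and Oas2 by -0.04. For Oas2 the interval, -0.25 to 0.17, was the narrowest of the 28. Rsad2, which encodes viperin, differed by 0.15 and was highest on heterozygous array 2 (5.34) and wild type array 1 (5.13). It was 0.0205 without heterozygous array 2, 0.27 without wild type array 1 and 0.060 without wild type array 3. Isg20, an RNA exonuclease, differed by 0.16 (SE 0.0967), with 6.67 to 7.01 in heterozygous and 6.57 to 6.86 in wild type arrays. None of the 8 measured effectors had an unadjusted p under 0.05.

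Usp18 removes ISG15 from its targets and damps signalling at the receptor. It ran between 4.69 and 5.26 in heterozygous arrays and between 4.59 and 5.02 in wild type arrays, a difference of 0.14 (SE 0.126), which was 0.060 without heterozygous array 5 and 0.088 without wild type array 3. The promoter of Isg15 holds 3 matches to the response element, and its expression was not analysed here.

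Parp9, Dtx3l and Parp14 all had differences below 0. Parp9 and Dtx3l encode partners in a ubiquitin ligase complex, and Parp14 encodes an ADP-ribosyltransferase. Parp14 was at -0.23 (SE 0.154), Parp9 at -0.08 (SE 0.127) and Dtx3l at -0.06 (SE 0.126). Heterozygous array 5 had the lowest value of all 10 arrays for each of the 3 genes, and heterozygous array 3 the highest for Parp9 and Dtx3l. Without heterozygous array 5 Parp14 was at -0.15, Parp9 at 0.013 and Dtx3l at 0.017, so the direction of Parp9 and Dtx3l did not hold.

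Ifi35, Xaf1 and Rtp4 were induced genes of other kinds, and their differences were 0.15, 0.11 and 0.04. Xaf1, which encodes a partner of the apoptosis inhibitor XIAP, was nearly level in heterozygous arrays (7.01 to 7.16) and ran between 6.63 and 7.41 in wild type arrays, with array 1 highest. Ifi35 ran between 7.48 and 8.12 in heterozygous and between 7.23 and 8.22 in wild type arrays. Rtp4, a receptor transport protein, was highest on heterozygous array 2 (5.61) and wild type array 1 (5.49).

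**Figure D3:**
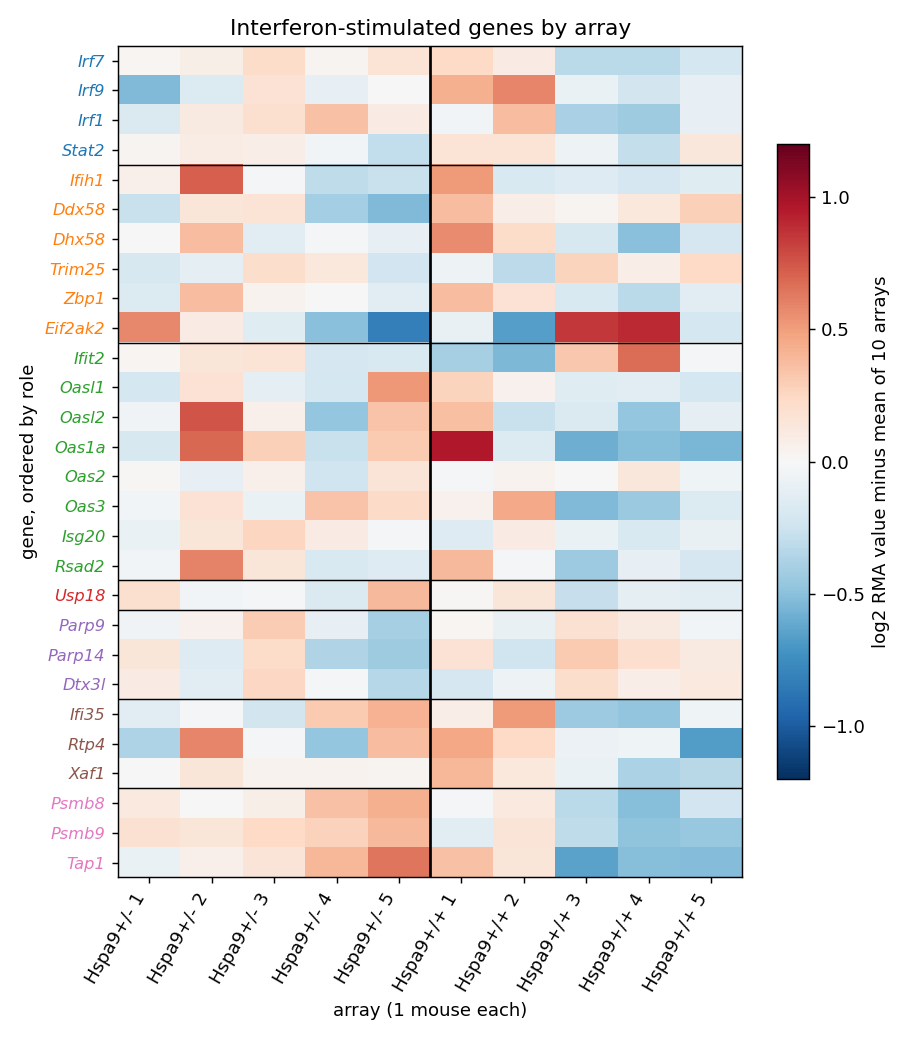
Log2 RMA value of each of the 28 interferon-stimulated genes minus its mean over 10 arrays, with Hspa9+/- arrays on the left and Hspa9+/+ arrays on the right, and genes ordered by role. Heterozygous array 2 and wild type array 1 are high for Ifih1, Dhx58, Zbp1, Oasl2 and Oas1a, and the antigen processing genes at the bottom are low in wild type arrays 3, 4 and 5.

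Across the arrays, heterozygous array 2 held the highest value for 5 of the 28 members, where it did so for 13.3% of all genes, and wild type array 1 for 6 members, against 8.35% of all genes. Neither array held the lowest value of any of these 28. Heterozygous array 5 was the highest for 6 members, against 23.1% of all genes, and the lowest for 6 others. The share of all genes with their lowest value on each array was not computed. Over the 25 members outside antigen processing, the median deviation from the 10-array mean was -0.032, 0.14, 0.084, -0.10 and -0.015 in heterozygous arrays, against 0.18, 0.081, -0.084, -0.18 and -0.12 in wild type arrays. These 25 members had 1 gene at an unadjusted p under 0.05, Ddx58 (4%, against 11.0% of all genes).

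Markers of macrophages, which answer strongly to interferon, moved along with these arrays. Of the 16 listed markers 15 passed the filter and Cd163 did not. Their mean was 7.10, 9.54, 7.03, 6.84 and 7.08 in heterozygous arrays, against 9.10, 7.42, 5.62, 5.42 and 5.58 in wild type arrays. All 15 had a difference above 0 and none had an unadjusted p under 0.05. Plasmacytoid dendritic cell markers, 9 of 11 measured, ran from 8.31 to 9.22 in heterozygous and from 7.73 to 8.65 in wild type arrays. Of these 9 markers 6 had differences above 0 and 3 below, and 5 were higher at an unadjusted p under 0.05, where 6.79% of all genes were. The 5 include Bst2 and Irf8, which interferons also induce, and the 3 below 0 were Spib (-0.30), Ly6d (-0.12) and Tcf4 (-0.09). Of 13 B lineage markers 12 had a row and all 12 passed the filter. B lineage markers averaged 10.27 ± 0.210 in heterozygous and 10.71 ± 0.150 in wild type arrays (SD). Of these 12 markers 3 had differences above 0 and 9 below. At an unadjusted p under 0.05, 1 was higher, Igll1 (0.28), and 3 were lower, Ms4a1 (-1.57), Ralgps2 (-1.35) and Cd22 (-0.98). Of all genes 6.79% were higher and 4.25% lower at that level. The genotypes did not overlap for 2 of the 12, against 2.28% of all genes. Cd79a and Cd79b were at -0.14 and -0.11. With the macrophage mean as a covariate the median member was at -0.016, and with plasmacytoid dendritic cell markers (without Bst2 and Irf8) at -0.024, where the median gene was at 0.054 and 0.056. Neutrophil markers, 12 of 13 measured, averaged 5.52 to 7.52 in heterozygous and 5.04 to 6.93 in wild type arrays. T cell and NK cell markers, 5 of 11 measured, averaged 5.93 to 6.21 in heterozygous and 5.41 to 5.77 in wild type arrays, without overlap. Of these 5 genes 4 were higher at an unadjusted p under 0.05, against 6.79% of all genes, and 3 did not overlap, against 1.47%. The part of these cell types in the members' values was not tested.

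**Figure D4:**
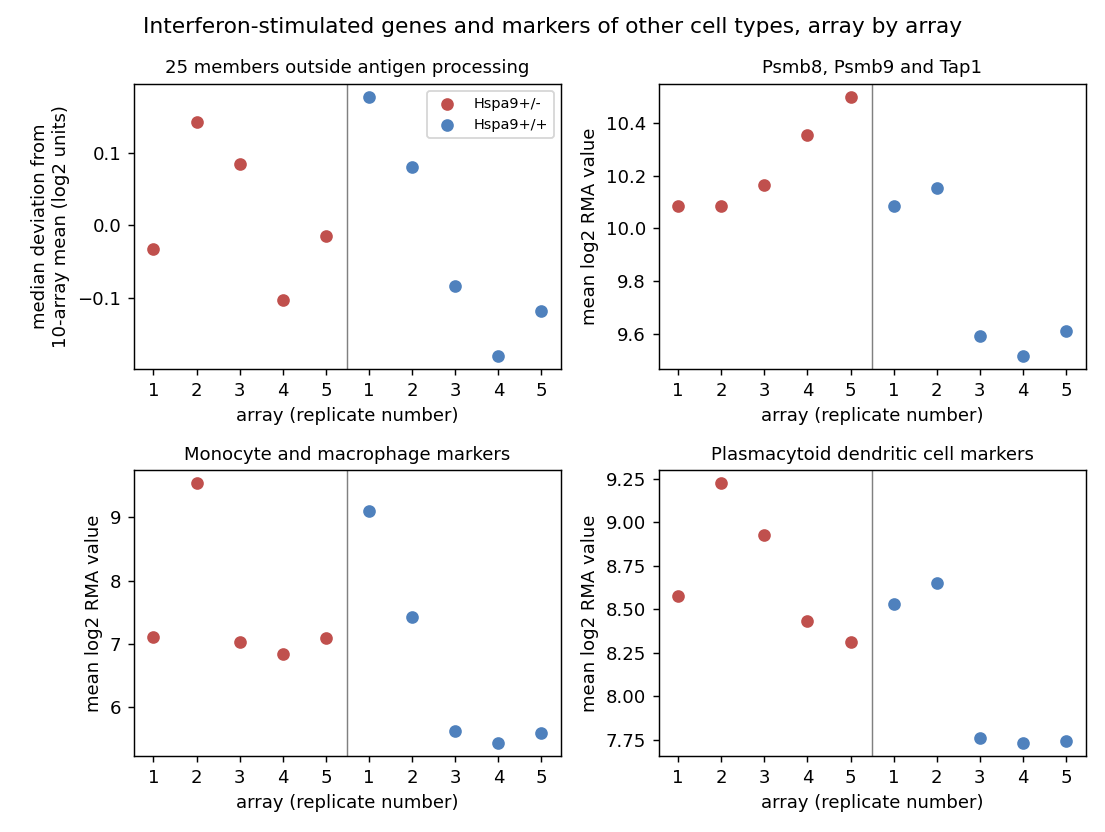
Array by array, the median deviation of the 25 interferon-stimulated genes outside antigen processing, the mean of Psmb8, Psmb9 and Tap1, and the means of the macrophage and plasmacytoid dendritic cell markers, with Hspa9+/- arrays in red and Hspa9+/+ arrays in blue. Axes do not start at 0. Wild type arrays 3, 4 and 5 are lowest in both marker lists and in the antigen processing genes.

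The pathway around these genes was followed through further fixed lists. Among interferon genes themselves 8 of 18 passed the filter and Ifnb1, at 3.82 in heterozygous and 3.66 in wild type arrays, did not. None of the 8 had an unadjusted p under 0.05. Those of smallest p were Ifna9 at -0.23 (SE 0.144) and Ifna2 at 0.17 (SE 0.124). Interferon alpha genes are close copies of each other, so their probe sets are uncertain.

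Receptors and kinases gave 9 measured genes, and none had an unadjusted p under 0.05. The smallest p belonged to Ifnlr1, the interferon lambda receptor, at 0.21 (SE 0.115), and to the kinase Jak2 at -0.32 (SE 0.236), which was -0.11 without heterozygous array 5. Of the type I receptor chains, Ifnar1 averaged 7.88 ± 0.316 in heterozygous and 7.80 ± 0.206 in wild type arrays, and Ifnar2 averaged 9.55 ± 0.366 and 9.37 ± 0.318 in the same order (SD).

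Of 7 feedback inhibitors, Ptpn2 alone had an unadjusted p under 0.05 (14.3%, against 11.0% of all genes), and it was lower. It encodes a phosphatase that removes phosphate from JAK1. Its values were 7.48, 7.40, 7.40, 7.15 and 6.88 in heterozygous arrays, against 7.40, 7.70, 7.95, 8.15 and 7.71 in wild type arrays. Every wild type array other than array 1 lay above all heterozygous arrays, and the difference was -0.52 (SE 0.160, limma adjusted p = 0.349).

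Of 10 measured inducers of interferon, Mavs alone had an unadjusted p under 0.05 (10%, against 11.0% of all genes), and it was higher. It encodes the adaptor on the mitochondrial outer membrane to which RIG-I and MDA5 signal. It was at 7.82, 8.13, 7.90, 8.36 and 8.24 in heterozygous arrays, against 8.20, 7.65, 7.52, 7.19 and 7.38 in wild type arrays. Wild type array 1 alone reached the heterozygous range. The difference was 0.50 (SE 0.183, limma adjusted p = 0.384).

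Other type I induced genes outside the list had differences in both directions. Of 35 measured, 2 were higher and 3 lower at an unadjusted p under 0.05 (14.3%, against 11.0% of all genes), and the median difference was 0.078. Sp100, a component of PML nuclear bodies, was at 7.83, 8.14, 8.10, 7.55 and 7.07 in heterozygous arrays, against 8.45, 8.75, 8.41, 8.65 and 8.64 in wild type arrays. Its genotypes did not overlap, which held for 1 of these 35 genes and 2.28% of all genes, with a difference of -0.84 (SE 0.191, limma adjusted p = 0.310). Samd9l, a growth-restraining gene of blood cells, was at 6.96, 7.24, 5.78, 5.47 and 4.94 in heterozygous arrays, against 7.09, 7.41, 7.29, 8.20 and 7.38 in wild type arrays. Heterozygous arrays 3, 4 and 5 were far below all wild type arrays, array 1 was just below them and array 2 was within their range, for a difference of -1.40 (SE 0.415, limma adjusted p = 0.349). Trim34a was at -0.37 (SE 0.118). Bst2, which encodes the virus-tethering protein tetherin and is a plasmacytoid dendritic cell marker, was at 0.72 (SE 0.246, limma adjusted p = 0.364), and at 0.28 with plasmacytoid dendritic cell markers other than Bst2 and Irf8 as a covariate.

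The measured members were also set beside their promoter motifs. Of the 21 that passed the filter and have a window, 7 held the response element, 4 of them with differences above 0 and 3 below, and a median of 0.074. The other 14 had 10 above 0 and 4 below, with a median of 0.15. The 7 with the gamma-activated site had 5 above 0 and 2 below, with a median of 0.16. These divisions are a description and were not tested.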

How the data were processed

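The authors deposited RMA summaries in log2 units, 1 per probe set and array. Affymetrix Expression Console and RMA are named in the submitters' processing notes, and their versions, the genome build and the annotation release are not given in the sources used here. The method brings all arrays to 1 distribution, which would largely remove a shift shared by most genes. The table held 35556 probe sets on 10 arrays. Names came from the platform's annotation table (21789 with 1 symbol, 1621 with several, 12146 not listed), and older list symbols through the RefSeq table of GRCm38.p6. The number of arrays limits the precision.

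Each gene's difference was fitted by lmFit and eBayes (limma 3.58.1, R 4.3.3), with Benjamini-Hochberg adjustment over all genes kept and a threshold of 0.05. SE is limma's moderated one. The fit was tested on simulated data with independent noise for each gene and array. Deviations that a whole array shares were not part of that simulation. Values in every array were printed for members with an unadjusted p under 0.05, without overlap, or among the 6 of largest absolute difference, and from each pathway list up to 4 genes with an unadjusted p under 0.05 or else the 2 of smallest p were named. Irf7 was printed in full, and Ifnar1, Ifnar2, Ifnb1, Irf8, Spib, Ly6d, Tcf4, Psmb10, Tapbp, B2m and Erap1 named, after their values were seen. Single B lineage, T cell and NK cell markers were also named after their values were seen. The members, lists and settings were chosen with earlier results of these data known. Alternatives were other filters, rows, normalizations and variance models, array weights, the replicate block, marker covariates and left-out arrays. The marker covariates partly follow genotype, so a smaller difference with them does not separate other cells from genotype.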

Additional observations from a re-analysis of the deposited data

Results flagged for a closer look

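Within a genotype, 1 array stood far from the other 4 for 4 members, by a gap test that sets apart about 1 in 20 groups by chance. The 94 groups tested covered 47 genes, so chance alone would set apart 4.7, and the 4 are no more than that. All 4 values came from the arrays highest in macrophage markers. Dhx58 was at 6.23 and Ifit3, below the filter, at 4.07 on heterozygous array 2, where the next highest heterozygous values were 5.86 and 3.80. Ifih1 was at 5.50 and Oas1a at 7.45 on wild type array 1, where the next highest wild type values were 4.84 and 6.33.
The part of other cells in these values was not tested.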

How the results depend on the processing

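The count of members past the threshold was 0 in every setting except array weights, where it was 1, Psmb9 (0.57, limma adjusted p = 0.0366). That fit called 137 genes in all (0.916%) and had 7 members and 20.6% of all genes at an unadjusted p under 0.05. The count of 3 members at an unadjusted p under 0.05 ran from 2 to 6 without 1 array. It was 5 without wild type array 1 and 6 without wild type array 2 (15.0% and 13.6% of all genes), and 6 without heterozygous array 2 and wild type array 1 together (16.1%). The replicate block gave 2, and 0 past the threshold. Same-numbered arrays correlated between -0.53 and 0.53 in their deviations from the genotype means, so the numbers were not taken to pair the samples. The median member ran from -0.0022 without heterozygous array 2 to 0.16 without wild type array 1. Psmb8, Psmb9, Tap1 and Ddx58 kept their sign in all 21 alternatives. So did Irf7, Irf9, Irf1, Eif2ak2, Oasl2, Oas3, Isg20, Usp18, Parp14 and Ifi35 in every alternative that held them. Signs turned for the following members. With array weights Stat2 was at 0.0598. With quantile normalization Ifih1 was at -0.0250, Dhx58 at -0.0183, Zbp1 at -0.00441 and Rtp4 at -0.0551. With macrophage markers as a covariate Ifih1 was at -0.12, Dhx58 at -0.15, Zbp1 at -0.11, Ifit2 at 0.10, Oasl1 at -0.0322, Rsad2 at -0.0248, Dtx3l at 0.00949, Rtp4 at -0.17 and Xaf1 at -0.0219. With plasmacytoid dendritic cell markers Ifih1 was at -0.26, Dhx58 at -0.29, Trim25 at 0.0426, Zbp1 at -0.25, Ifit2 at 0.18, Oasl1 at -0.0187, Oas1a at -0.16, Rsad2 at -0.19, Rtp4 at -0.32 and Xaf1 at -0.12. Without 1 array Stat2 ran from -0.13 to 0.018, Ifih1 from -0.0963 to 0.21, Dhx58 from -0.0730 to 0.19, Zbp1 from -0.0450 to 0.14, Ifit2 from -0.16 to 0.14, Oasl1 from -0.059 to 0.14, Oas2 from -0.088 to 0.012, Parp9 from -0.16 to 0.013, Dtx3l from -0.13 to 0.017 and Rtp4 from -0.12 to 0.16. The cause was not tested.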
